A study of Homo sapiens with 7 samples.

Results

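The mRNA levels of 43 genes whose products license DNA replication origins, unwind the DNA and copy it at the fork were examined in HEL cells with and without a CRISPR knockout (KO) of WTAP. The genes were chosen by name for their known roles, though with earlier results of these data known. They fell into 11 role groups, from the origin recognition complex to the single-strand binding complex RPA. All 43 were among the 24819 gene symbols listed for every sample, and all 43 were among the 12631 genes with a mean of at least 1 count per 1000000 counted reads (CPM) that were tested. HEL is a human erythroleukemia cell line. WTAP is a subunit of the methyltransferase complex that places N6-methyladenosine (m6A) on mRNA. There were 3 samples with a non-targeting control guide (NTC), 2 samples with the WTAP guide sg1 and 2 with the WTAP guide sg2. Cas9 and guide were delivered with the lentiCRISPRv2 vector in the control and the KO samples alike, so all 7 samples carried the vector. Per the study's methods the cells were transduced, and no isolation of clones was described for the RNA-seq samples. The cell line stands in the labels of the NTC samples only, and the study's methods give it for the rest.

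Replication is prepared in G1, when the origin recognition complex, CDC6 and CDT1 load the MCM2-7 helicase ring onto origins. Geminin (GMNN) then blocks CDT1 and so keeps origins from being loaded again. In S phase the ring is turned into an active helicase by CDC45 and the GINS complex. Polymerase alpha with primase lays down primers, polymerase epsilon copies the leading strand and polymerase delta the lagging strand. The sliding clamp PCNA is loaded by replication factor C (RFC), FEN1 and LIG1 finish Okazaki fragments, and RPA covers exposed single strands. Transcription of many of these genes is driven in late G1 by the E2F factors, which the RB family restrains. Cells that divide quickly, such as erythroid progenitors and leukemia lines, carry much of this mRNA.

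Whole reads could be recovered from the CPM, and depth was 37.3 to 41.0 M reads (1 M is 1000000) in the NTC samples and 15.9 to 26.3 M in the WTAP samples, so that every NTC sample was deeper than every WTAP sample. A count of 3 reads is 0.0732 to 0.189 CPM at these depths, far below the level of the 43 genes. The labels do not say whether samples of a group came from separate cultures, so p-values measure only the spread between these samples, which may be technical. In the NTC samples WTAP mRNA itself was at 145, 136 and 149 CPM, with sg1 at 123 and 139.9 CPM and with sg2 at 84.8 and 114 CPM. Its log2 fold change in WTAP KO, here and throughout with ± for the SE and on the log2(CPM + 1) scale, was -0.33 ± 0.15, and the groups overlapped (limma, adjusted p = 0.0801). DESeq2 on recovered reads gave -0.48 (adjusted p = 0.00553). By guide, limma gave -0.53 ± 0.13 with sg2 (adjusted p = 0.00430) and -0.13 ± 0.13 with sg1 (adjusted p = 0.417). A guide cuts DNA, and the level of the mRNA does not show how much WTAP protein was left. All 12 erythroid markers examined were at 1 CPM or more in every NTC sample and 10 of the 12 in every WTAP sample, and their summed level was 4177 to 4946 CPM in NTC and 760.1 to 1003 CPM in WTAP. The sum over 6 megakaryocyte markers was 1599.9 to 1642 CPM in NTC and 1459 to 2404 CPM in WTAP. The sum over 7 monocyte and granulocyte markers was 43.3 to 46.5 CPM and 31.6 to 57.0 CPM, with 1 marker at 0 in all samples. For 6 lymphocyte markers it was 4.25 to 6.30 CPM and 17.4 to 40.1 CPM, with 1 at 0, and for 8 markers of fibroblasts, endothelium and epithelium 264.7 to 297.8 CPM and 72.6 to 135.4 CPM. The 11 tested genes of chromosome Y all had groups that did not overlap, beside 66.3% of all tested genes, and the WTAP samples listed 551 more gene symbols than the NTC samples. Depth, listed symbols and chromosome Y genes thus split the samples as the groups did, so that in every comparison with NTC the KO and a difference in cell stock or processing run cannot be told apart. The part of the marker differences in the results below was not tested. In bulk RNA, fewer cells in S phase and less mRNA per cell cannot be told apart.

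The replication genes did not move as a block in WTAP KO. At an adjusted p under 0.01 (limma, Benjamini-Hochberg over all 12631 genes), 9 of the 43 rose, 4 fell and 30 did not pass. Of all tested genes 52.4% passed, 32.5% higher and 19.8% lower, and the 13 of 43 were 30.2%. The rises were CDT1, MCM3, GINS4, POLA2, PRIM2, POLD3, RFC1, RFC2 and FEN1, and the falls were POLD1, POLD2, POLE3 and LIG1. The median log2 fold change of the 43 was 0.085 beside 0.15 over all tested genes, and their median absolute log2 fold change was 0.32 beside 0.53. For 22 of the 43 (51.2%) all WTAP samples lay to the same side of all NTC samples, 12 above and 10 below, against 66.3% of all tested genes. Of these 22, 9 did not pass the test.

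The split between rises and falls depended on the scaling. Rescaling by the median of ratios moved the median of all genes from 0.15 to -0.0013 on the log2 scale, and 7 of the 43 then rose and 10 fell. edgeR's quasi-likelihood test on recovered reads gave the same numbers, DESeq2 gave 9 rises and 10 falls, and quantile normalization gave 10 and 6. Of all tested genes these fits called 53.1%, 53.4%, 59.4% and 49.5%. With the rescaling and with edgeR, GINS4 and FEN1 no longer passed. With the rescaling, edgeR and DESeq2, ORC2, ORC4, POLE, POLE2, RPA1 and RPA3 were lower past the threshold. With limma in the design of 3 groups that was used for the guides, 9 rose and 8 fell, against 61.2% of all tested genes, and the falls gained were ORC4, POLE, POLE2 and RFC3 (adjusted p = 0.00213, 0.00707, 0.00137 and 0.00651). The calls of CDT1, MCM3, POLA2, PRIM2, POLD3, RFC1, RFC2 and LIG1 were kept in all 14 other fits and in all 7 fits that left out 1 sample.

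**Figure D1:**
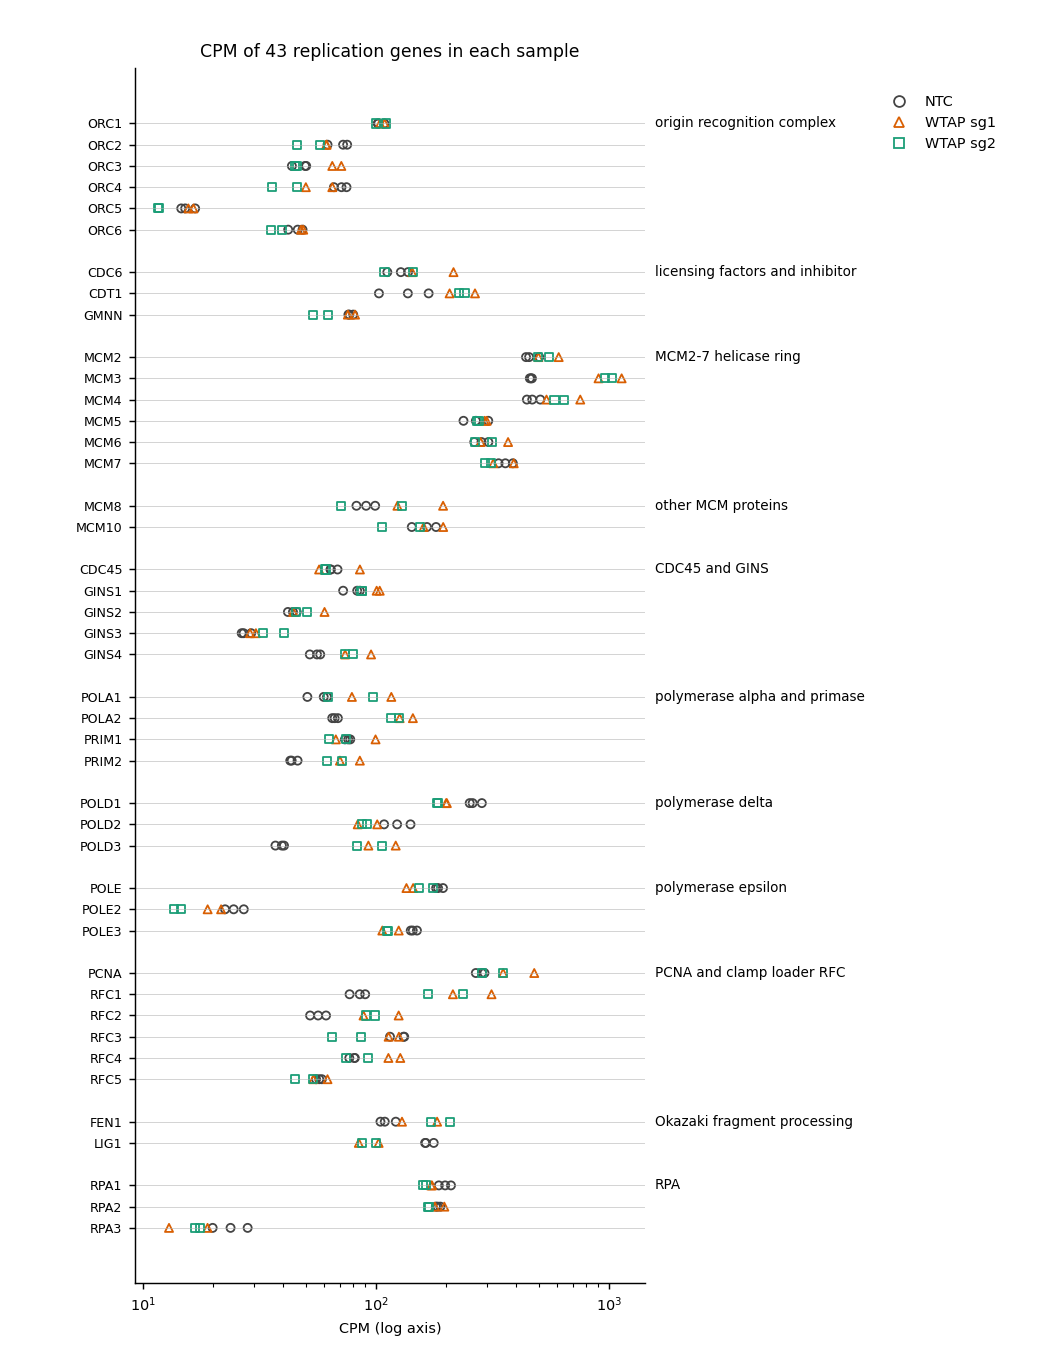
CPM of the 43 replication genes in each of the 7 samples, on a log axis, by role group. Circles are the NTC samples, triangles WTAP sg1 and squares WTAP sg2. For MCM3, POLD3, POLA2 and RFC1 every WTAP sample sits to the right of every NTC sample, and for LIG1 every WTAP sample sits to the left.

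**Figure D2:**
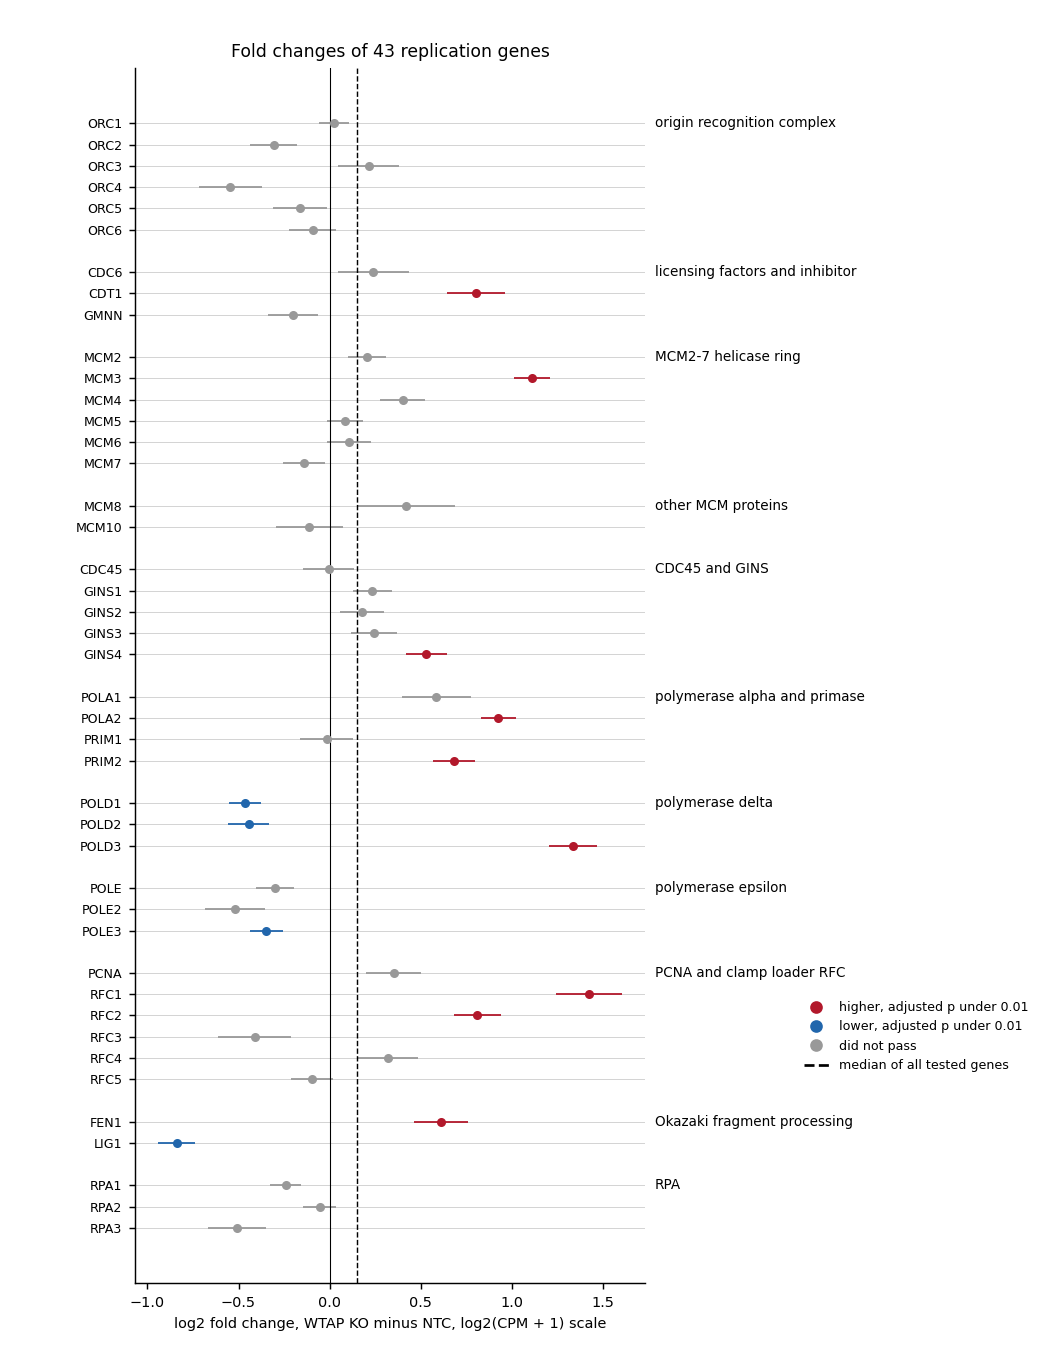
Log2 fold change of WTAP KO against NTC for each of the 43 genes, with bars for the SE, on the log2(CPM + 1) scale. Red genes rose and blue genes fell at an adjusted p under 0.01, and the dashed line is the median of all tested genes at 0.15. Subunits of the same complex lie on both sides of that line, with POLD3 at 1.34 beside POLD1 at -0.46 and RFC1 at 1.43 beside RFC3 at -0.41.

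Promoter windows were searched for words bound by E2F and by other cell cycle factors. RefSeq windows (GRCh38.p14) from 250 bases before to 50 bases after the transcription start were matched for 37 of the 43 genes. No window was matched for MCM4, MCM5, GINS4, POLD3, RPA2 and RPA3. The words TTTCCCGC, TTTCGCGC, TTTGCCGC and TTTGGCGC, taken here as E2F words and searched on both strands, stood in 18 of the 37 windows (48.6%), against 3.33% of 27305 windows of all genes and 5.39% of 9501 windows of tested genes. CCAAT, the NF-Y word, stood in 21 of 37 (56.8%), against 35.7% of all windows and 36.9% of those of tested genes. TTTGAA, the CHR word of genes expressed in G2 and mitosis, stood in 0 of 37, against 15.4% and 9.51%. An E2F word was present for 3 of 7 genes that rose (MCM3, CDT1 and POLA2), for 1 of 4 that fell (LIG1) and for 14 of 26 that did not pass. A word is a match of letters and not a bound site. The windows of 4 genes with called changes and of MCM6, which held the most E2F words and did not pass, are given on the strand of the gene, 5′ to 3′, with E2F and CCAAT words on either strand in capitals.
MCM3: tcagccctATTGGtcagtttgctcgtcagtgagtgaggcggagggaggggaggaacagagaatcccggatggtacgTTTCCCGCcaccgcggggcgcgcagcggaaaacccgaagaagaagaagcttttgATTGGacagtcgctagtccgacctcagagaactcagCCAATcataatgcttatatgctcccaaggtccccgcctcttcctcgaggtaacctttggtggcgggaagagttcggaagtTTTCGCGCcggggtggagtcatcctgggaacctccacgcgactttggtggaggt
POLA2: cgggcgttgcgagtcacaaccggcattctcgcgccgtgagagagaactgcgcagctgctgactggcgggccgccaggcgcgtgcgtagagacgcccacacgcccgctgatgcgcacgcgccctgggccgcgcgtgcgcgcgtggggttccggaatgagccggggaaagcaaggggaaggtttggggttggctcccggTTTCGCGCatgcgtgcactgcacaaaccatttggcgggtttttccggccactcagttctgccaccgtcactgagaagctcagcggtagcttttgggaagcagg
RFC1: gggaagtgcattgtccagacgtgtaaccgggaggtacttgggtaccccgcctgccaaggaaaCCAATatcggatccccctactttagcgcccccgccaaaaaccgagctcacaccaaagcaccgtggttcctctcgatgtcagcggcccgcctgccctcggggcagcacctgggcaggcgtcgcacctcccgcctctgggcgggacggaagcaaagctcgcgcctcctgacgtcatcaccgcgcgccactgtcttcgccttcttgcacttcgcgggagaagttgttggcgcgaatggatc
LIG1: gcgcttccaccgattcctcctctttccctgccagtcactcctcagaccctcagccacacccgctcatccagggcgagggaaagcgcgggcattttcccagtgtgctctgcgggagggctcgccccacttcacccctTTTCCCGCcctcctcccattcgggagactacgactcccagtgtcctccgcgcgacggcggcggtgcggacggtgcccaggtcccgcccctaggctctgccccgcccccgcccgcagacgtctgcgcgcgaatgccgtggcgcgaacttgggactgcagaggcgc
MCM6: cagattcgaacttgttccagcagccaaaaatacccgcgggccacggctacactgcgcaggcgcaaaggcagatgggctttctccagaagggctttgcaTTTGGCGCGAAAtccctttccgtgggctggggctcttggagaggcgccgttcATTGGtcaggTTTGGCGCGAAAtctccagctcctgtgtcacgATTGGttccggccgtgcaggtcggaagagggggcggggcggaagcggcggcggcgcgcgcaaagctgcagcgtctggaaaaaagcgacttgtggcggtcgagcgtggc
The MCM3 window (chr6:52284693-52284992, minus strand) held 2 E2F words that began 174 and 4 bases before the start, and 3 CCAAT words. The POLA2 window (chr11:65261712-65262011, plus strand) held 1 E2F word 53 bases before the start and no CCAAT. The RFC1 window (chr4:39366313-39366612, minus strand) held no E2F word and 1 CCAAT. The LIG1 window (chr19:48170295-48170594, minus strand) held 1 E2F word 114 bases before the start. The MCM6 window (chr2:135876394-135876693, minus strand) held 4 E2F words that overlapped in pairs at 2 places, and 2 CCAAT words.

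The origin recognition complex marks origins and, with CDC6 and CDT1, loads the helicase ring. None of its 6 mRNAs passed limma's test in WTAP KO. For 2 of them the unadjusted p was under 0.05, as it was for 8651 of the 12631 tested genes. edgeR and DESeq2 each called ORC2 and ORC4 lower, and they called 53.4% and 59.4% of all tested genes. ORC1, the subunit whose level follows the cell cycle most closely, was at 109, 102 and 102 CPM in NTC, 104 and 109 CPM with sg1 and 100.3 and 111 CPM with sg2, and its groups overlapped (log2 fold change 0.024 ± 0.085, adjusted p = 0.812). ORC4 was at 71.2, 66.03 and 74.8 CPM in NTC, 50.05 and 65.01 CPM with sg1 and 35.7 and 45.9 CPM with sg2. All WTAP samples were below all NTC samples, with a log2 fold change of -0.54 ± 0.17 and adjusted p = 0.0184. It passed without sg1 replicate 2 (adjusted p = 0.00176). ORC2 also lay below NTC in every WTAP sample, at 45.8 to 61.4 CPM against 62.01 to 75.3 CPM (-0.31 ± 0.13, adjusted p = 0.0561). The log2 fold changes of ORC3, ORC5 and ORC6 were 0.21 ± 0.17, -0.16 ± 0.15 and -0.093 ± 0.13, with adjusted p of 0.287, 0.361 and 0.547.

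Among the licensing factors CDT1 rose and its inhibitor GMNN did not pass. CDT1 (chromosome 16, 88870197 to 88875666, plus strand, GRCh37) was at 103, 168 and 137 CPM in NTC, 207 and 266 CPM with sg1 and 227 and 240.0 CPM with sg2. The NTC mean was 136 ± 32.7 CPM (SD, n = 3) and the WTAP mean 235 ± 24.8 CPM (SD, n = 4), a 1.73-fold level with a log2 fold change of 0.81 ± 0.16 (adjusted p = 0.00133). The NTC samples were spread more widely than the WTAP samples, and the groups did not overlap. GMNN, the protein that holds CDT1 inactive after S phase begins, was at 79.9, 76.2 and 76.9 CPM in NTC, 75.8 and 81.4 CPM with sg1 and 53.9 and 62.1 CPM with sg2. Both sg2 samples and sg1 replicate 1 were below the NTC range, and over both guides the log2 fold change was -0.20 ± 0.14 (adjusted p = 0.228). With sg2 alone GMNN fell against NTC (-0.42 ± 0.10, adjusted p = 0.00367). Per kb of the annotated transcript, the ratio of CDT1 to GMNN mRNA was 0.611, 1.05 and 0.845 in NTC and 1.30, 1.55, 1.99 and 1.83 in WTAP, with no overlap. This ratio was formed with the fold changes known and is given with no test. CDC6, the loader that acts with CDT1, was at 137, 112 and 128 CPM in NTC, 143 and 215 CPM with sg1 and 109 and 144 CPM with sg2, and its groups overlapped (log2 fold change 0.24 ± 0.19, adjusted p = 0.298).

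MCM3 rose in WTAP KO, and the other 5 subunits of the helicase ring, which are loaded together in equal numbers, did not pass. MCM3 (chromosome 6, 52128812 to 52149679, minus strand) was at 467, 463 and 457 CPM in NTC, 902 and 1133 CPM with sg1 and 957 and 1028 CPM with sg2. The NTC samples lay close together, and every WTAP sample lay far above them. The mean was 462 ± 4.80 CPM in the controls (SD, n = 3) and 1005 ± 99.7 CPM in the KO (SD, n = 4), 2.17 times as high, with a log2 fold change of 1.11 ± 0.10 (adjusted p = 9.29e-06). MCM4 was at 507, 444 and 468 CPM in NTC, 539 and 753 CPM with sg1 and 584 and 644 CPM with sg2, above NTC in every WTAP sample, and with a log2 fold change of 0.40 ± 0.12 it did not pass (adjusted p = 0.0153). It passed without sg1 replicate 1 (adjusted p = 0.00638) and with quantile normalization. MCM2, MCM5, MCM6 and MCM7 overlapped between the groups. Their log2 fold changes were 0.21 ± 0.10, 0.085 ± 0.10, 0.11 ± 0.12 and -0.14 ± 0.11, with adjusted p of 0.108, 0.479, 0.456 and 0.300. The promoter windows of MCM3 and MCM6 are among those printed above.

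Per kb of annotated transcript, the 6 ring subunits were within 2.22, 2.23 and 1.97 times of each other from lowest to highest in the NTC samples, and 3.92, 4.28, 4.41 and 4.26 times in the WTAP samples. The share of MCM3 in the summed ring mRNA was 21.5% ± 0.560 in NTC (SD, n = 3) and 34.98% ± 0.851 in WTAP (SD, n = 4). MCM7 went from 20.8% ± 1.02 to 14.2% ± 0.788, and the shares of MCM2, MCM5 and MCM6 were lower in every WTAP sample than in every NTC sample. The share of MCM4 was 16.6% ± 1.45 and 16.5% ± 0.772, and overlapped. Shares within a sample do not depend on the scaling between samples, and shares of a sum fall when 1 member rises. These ratios were formed with the fold changes known and are given with no test.

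**Figure D3:**
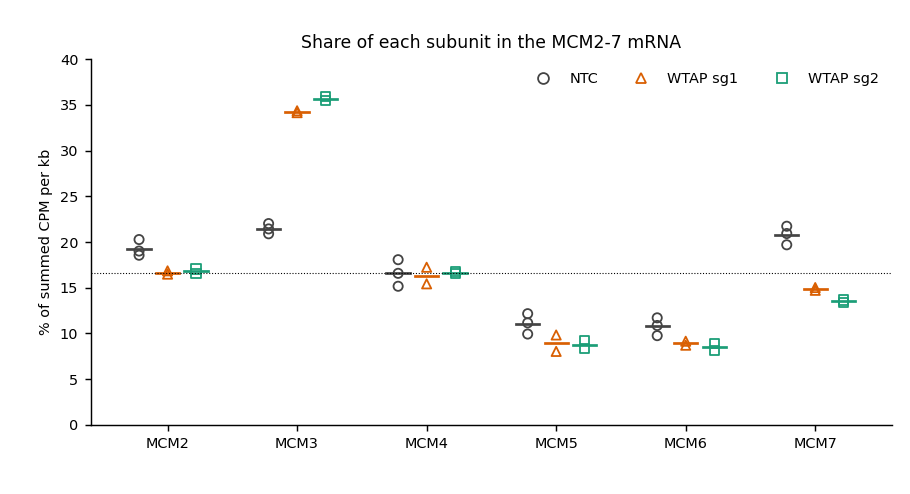
Share of each MCM2-7 subunit in the summed CPM per kb of the ring, in percent, for each sample, with short lines at the means of each group and a dotted line at an equal share. MCM3 lies at 20.9 to 22.02% in the NTC samples and at 34.2 to 35.9% in the WTAP samples, and MCM7 lies lower in WTAP than in NTC.

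Of the other 2 MCM proteins and the 5 factors that activate the ring, 1 rose and the others did not pass. MCM8, a helicase of recombination repair rather than of licensing, was at 99.3, 82.5 and 90.8 CPM in NTC, 124 and 194 CPM with sg1 and 70.5 and 129.6 CPM with sg2. The samples of each guide were far apart, and its log2 fold change was 0.42 ± 0.27 (adjusted p = 0.190). Without sg2 replicate 1 it passed (0.68, adjusted p = 0.00390). MCM10, which helps to start the fork, had a log2 fold change of -0.11 ± 0.18 (adjusted p = 0.612), and of these 2 genes neither limma, edgeR nor DESeq2 called any and none had an unadjusted p under 0.05. CDC45, the subunit that with GINS makes the ring an active helicase, was at 64.02, 68.4 and 63.9 CPM in NTC, 57.1 and 85.4 CPM with sg1 and 60.3 and 61.3 CPM with sg2, with a log2 fold change of -0.0054 ± 0.14 (adjusted p = 0.975). Of the 4 GINS subunits, GINS4 (chromosome 8, 41386737 to 41402549, plus strand) was at 57.7, 52.04 and 55.9 CPM in NTC, 73.8 and 95.3 CPM with sg1 and 73.4 and 79.8 CPM with sg2. It rose by 0.53 ± 0.11 on the log2 scale (adjusted p = 0.00216), and all WTAP samples were above all NTC samples. The call was lost without NTC replicate 2 (adjusted p = 0.0127), without NTC replicate 3 (0.0110) and with edgeR (0.0126). GINS1, GINS2 and GINS3 had log2 fold changes of 0.24 ± 0.11, 0.18 ± 0.12 and 0.24 ± 0.13, and their adjusted p were 0.0766, 0.223 and 0.119.

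In the polymerase alpha-primase complex POLA2 and PRIM2 rose, and POLA1 and PRIM1 did not pass. POLA2 (chromosome 11, 65029384 to 65073430, plus strand), the B subunit that tethers the polymerase, was at 66.5, 68.7 and 64.9 CPM in NTC, 126 and 144 CPM with sg1 and 116 and 126 CPM with sg2. It rose to 1.92 times the NTC mean, with a log2 fold change of 0.93 ± 0.10 (adjusted p = 2.28e-05), and the WTAP samples were all well above the NTC samples. PRIM2 (chromosome 6, 57179603 to 57513376, plus strand), the large primase subunit, was at 43.5, 42.9 and 46.1 CPM in NTC, 70.1 and 85.3 CPM with sg1 and 61.5 and 71.3 CPM with sg2. It rose by 0.68 ± 0.12 on the log2 scale (adjusted p = 0.000583), again with no overlap. PRIM1, the catalytic primase subunit, was at 73.6, 77.6 and 76.1 CPM in NTC, 67.3 and 99.6 CPM with sg1 and 62.8 and 74.7 CPM with sg2, and its groups overlapped (log2 fold change -0.016 ± 0.15, adjusted p = 0.932). On the same strand PRIM1 overlaps NACA, whose mean was 650.2 CPM in NTC and 315 CPM in WTAP, and reads in the overlap could be counted for either. POLA1, the polymerase itself, was at 61.7, 50.8 and 59.7 CPM in NTC, 78.9 and 116 CPM with sg1 and 62.3 and 97.2 CPM with sg2. All WTAP samples were above NTC, with a log2 fold change of 0.59 ± 0.19 (adjusted p = 0.0197), and it passed without sg2 replicate 1 (adjusted p = 0.00118).

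The 3 subunits of polymerase delta moved in opposite directions, and all 3 passed. POLD3 (chromosome 11, 74204896 to 74380162, plus strand), an accessory subunit that binds PCNA, was at 40.3, 37.1 and 39.5 CPM in NTC, 92.8 and 122 CPM with sg1 and 82.7 and 106 CPM with sg2. It rose to 2.59 times the NTC mean, with a log2 fold change of 1.34 ± 0.13 (adjusted p = 1.62e-05), and the groups were far apart. POLD1 (chromosome 19, 50887461 to 50921275, plus strand), the catalytic subunit, was at 253, 285 and 259.9 CPM in NTC, 202 and 200.1 CPM with sg1 and 185 and 183 CPM with sg2. It fell by 0.46 ± 0.088 on the log2 scale (adjusted p = 0.00110). POLD2 (chromosome 7, 44154230 to 44163957, minus strand), the subunit that joins the others, was at 108, 141 and 123 CPM in NTC, 83.6 and 101 CPM with sg1 and 91.2 and 86.9 CPM with sg2. It fell by 0.44 ± 0.11, with adjusted p = 0.00619. The POLD2 call was lost without NTC replicate 2 (0.0321), NTC replicate 3 (0.0267), sg1 replicate 1 (0.0146) and sg2 replicate 2 (0.0198), values that are adjusted p. Per kb, the ratio of POLD3 to POLD1 mRNA was 0.145, 0.118 and 0.138 in NTC and 0.418, 0.551, 0.404 and 0.528 in WTAP. POLD3 lay above and POLD1 below NTC in every WTAP sample, so this ratio could not overlap between the groups. It was formed with the fold changes known and is given with no test.

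All 3 polymerase epsilon mRNAs were below NTC in every WTAP sample, and 1 of them passed. Of all tested genes 66.3% had groups that did not overlap. POLE3 (chromosome 9, 116169515 to 116172955, minus strand), a histone-fold subunit, was at 150.0, 141 and 144 CPM in NTC, 107 and 125 CPM with sg1 and 111 and 113 CPM with sg2. It fell by 0.35 ± 0.089 on the log2 scale (adjusted p = 0.00637). This call stood with all 7 samples but held in 1 of the 7 fits that left out a sample, that without sg1 replicate 2, and the adjusted p in the others were 0.0121 to 0.0314. POLE, the catalytic subunit, was at 194, 185 and 181 CPM in NTC, 135 and 144 CPM with sg1 and 176 and 153 CPM with sg2, with a log2 fold change of -0.30 ± 0.10 (adjusted p = 0.0269). It passed without sg2 replicate 1 (0.00579). POLE2 was at 27.1, 22.5 and 24.5 CPM in NTC, 18.97 and 21.7 CPM with sg1 and 13.6 and 14.6 CPM with sg2, with a log2 fold change of -0.52 ± 0.17 (adjusted p = 0.0192), and it passed without sg1 replicate 2 (0.00443). edgeR and DESeq2 on recovered reads each called all 3 lower, and they called 53.4% and 59.4% of all tested genes in either direction.

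The clamp loader subunits RFC1 and RFC2 rose, and RFC3, RFC4, RFC5 and the clamp PCNA did not pass. The estimate for RFC1 was the highest of the 43, within its SE of that for POLD3. RFC1 (chromosome 4, 39289076 to 39367995, minus strand), the large subunit that makes the loader specific for PCNA, was at 89.9, 77.1 and 85.3 CPM in NTC, 214 and 313 CPM with sg1 and 168 and 236 CPM with sg2. The control mean was 84.1 ± 6.50 CPM (SD, n = 3) and the KO mean 233 ± 60.7 CPM (SD, n = 4), a 2.77-fold level with a log2 fold change of 1.43 ± 0.18 (adjusted p = 7.94e-05). The WTAP samples spread from 168 to 313 CPM and all lay above 89.9 CPM, the highest NTC sample. RFC2 (chromosome 7, 73645829 to 73668788, minus strand) was at 52.2, 61.1 and 56.5 CPM in NTC, 88.5 and 125 CPM with sg1 and 90.7 and 99.3 CPM with sg2, and it rose by 0.81 ± 0.13 (adjusted p = 0.000388). RFC3 was at 131, 115 and 132 CPM in NTC, 113 and 126 CPM with sg1 and 64.8 and 86.2 CPM with sg2, with log2 fold change -0.41 ± 0.20 (adjusted p = 0.0949). RFC4 and RFC5 had log2 fold changes of 0.32 ± 0.16 (adjusted p = 0.112) and -0.10 ± 0.12 (adjusted p = 0.482), and RFC4 passed without sg2 replicate 1 (adjusted p = 0.00756). Per kb, the ratio of RFC1 to RFC3 was 0.324, 0.318 and 0.305 in NTC and 0.893, 1.18, 1.23 and 1.30 in WTAP. This ratio was formed with the fold changes known and is given with no test. PCNA, the sliding clamp, was at 292, 268 and 285 CPM in NTC, 351 and 478 CPM with sg1 and 286 and 350.4 CPM with sg2, sg2 replicate 1 lay within the NTC range, and the log2 fold change was 0.35 ± 0.15 (adjusted p = 0.0634). It passed without sg2 replicate 1 (adjusted p = 0.00959).

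The nuclease and the ligase of Okazaki fragments moved apart. LIG1 (chromosome 19, 48618702 to 48673860, minus strand), which seals the nicks, was at 164, 177 and 163 CPM in NTC, 84.5 and 103 CPM with sg1 and 86.8 and 100.2 CPM with sg2. It fell by 0.84 ± 0.10 on the log2 scale, to 0.558 times the NTC mean (adjusted p = 5.75e-05), and its highest WTAP sample was far below its lowest NTC sample. FEN1 (chromosome 11, 61560383 to 61564710, plus strand), which trims the flaps, was at 122, 105 and 109 CPM in NTC, 129 and 183 CPM with sg1 and 173 and 209 CPM with sg2. It rose by 0.61 ± 0.15 (adjusted p = 0.00498), but sg1 replicate 1 lay close to the highest NTC sample. The call did not hold in 5 of the 7 fits with a sample left out, at adjusted p of 0.0108 without NTC replicate 1, 0.0252 without NTC replicate 2, 0.0211 without NTC replicate 3, 0.0121 without sg1 replicate 2 and 0.0139 without sg2 replicate 2. FEN1 also overlaps FADS2 on the same strand, whose mean was 335.4 CPM in NTC and 384.1 CPM in WTAP (log2 fold change 0.19, adjusted p = 0.152). Per kb, the ratio of FEN1 to LIG1 was 1.15, 0.916 and 1.04 in NTC and 2.37, 2.76, 3.08 and 3.22 in WTAP. With FEN1 above and LIG1 below NTC in every WTAP sample, this ratio could not overlap. It was formed with the fold changes known and is given with no test.

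None of the 3 RPA mRNAs passed with limma. For 2 of them the unadjusted p was under 0.05, as it was for 8651 of the 12631 tested genes. edgeR and DESeq2 each called RPA1 and RPA3 lower, and they called 53.4% and 59.4% of all tested genes. RPA1, the large subunit that binds single-stranded DNA, was at 209.9, 186 and 198 CPM in NTC, 173 and 174 CPM with sg1 and 159 and 164 CPM with sg2, below NTC in every WTAP sample (log2 fold change -0.24 ± 0.086, adjusted p = 0.0312). RPA3, the smallest subunit, was at 19.9, 28.2 and 23.8 CPM in NTC, 12.95 and 18.95 CPM with sg1 and 16.8 and 17.6 CPM with sg2, also with no overlap (log2 fold change -0.51 ± 0.16, adjusted p = 0.0180). RPA2 overlapped between the groups, with -0.054 ± 0.089 (adjusted p = 0.610).

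Levels of different genes were compared only as CPM per kb of the annotated transcript. In the NTC samples PCNA was highest at 221 ± 9.65 (SD, n = 3), followed by MCM3 at 151 ± 1.56, MCM7 at 146 ± 10.3 and MCM2 at 136 ± 9.44. MCM3 and MCM7 did not differ beyond their spread. ORC5 was lowest at 8.07 ± 0.578, next to POLD3 at 10.3 ± 0.449 and POLA1 at 10.5 ± 1.05, which did not differ beyond their spread. In WTAP KO, MCM3 was highest at 328 ± 32.5 (SD, n = 4), with PCNA at 287 ± 62.9, within its spread. POLD3 moved from rank 42 to rank 29 of the 43, CDT1 from 18 to 7 and LIG1 from 16 to 27. The 43 genes together held 0.592 to 0.596% of reads in the NTC samples, 0.669 and 0.832% with sg1 and 0.630 and 0.709% with sg2. Without MCM3 the summed level was 5460.0 to 5496 CPM in NTC and 5345 to 7183 CPM in WTAP, and the groups overlapped.

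The transcripts of the 43 genes had a median GC content of 45.9% and a median length of 2664 bases, beside 48.5% and 3275 bases over all tested genes with values. Within the 43, median GC was 51.7% for the 9 that rose, 59.7% for the 4 that fell and 44.1% for the 30 that did not pass. A correction of each sample for trends with GC content and transcript length raised the number of calls to 20, with 13 higher and 7 lower, and 58.1% of all genes then passed. Several members share a locus with another listed gene. On the opposite strand RFC5 overlaps WSB2 (55.5 CPM in NTC and 24.3 CPM in WTAP), RFC4 overlaps EIF4A2, GINS1 overlaps NINL, GINS2 overlaps GSE1, MCM7 overlaps AP4M1, POLE3 overlaps C9orf43, ORC4 overlaps ACVR2A and MBD5, PRIM1 overlaps HSD17B6 and RPA1 overlaps SMYD4, and the strand setting of the counting was not stated, so that reads of these pairs might not be told apart. Annotated pseudogenes exist for ORC1, POLD2, PCNA, RFC3, RFC5, FEN1, RPA2 and RPA3, and reads shared with them leave those values uncertain.

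Each WTAP guide was compared with the same 3 NTC samples, so the comparisons share their controls. With sg1, 15 of the 43 genes passed (12 higher, 3 lower), against 51.2% of all tested genes (32.2% higher, 19.0% lower). With sg2, 17 passed (9 higher, 8 lower), against 57.7% of all tested genes (35.6% higher, 22.1% lower). Rescaling by the median of ratios turned these splits into 9 higher and 7 lower with sg1, and 8 higher and 16 lower with sg2, where 52.2% and 58.7% of all genes passed. edgeR gave 8 and 9 with sg1 and 7 and 16 with sg2 (52.2% and 58.1% of all genes), and DESeq2 13 and 9 with sg1 and 8 and 18 with sg2 (55.7% and 61.1%). Quantile normalization gave 12 and 6 with sg1 and 9 and 13 with sg2 (48.5% and 56.6%). Without sg2 replicate 2 the count with sg2 was 11. MCM3 had a log2 fold change of 1.13 ± 0.12 with sg1 and 1.10 ± 0.12 with sg2, and RFC1 of 1.61 ± 0.18 and 1.24 ± 0.18. For LIG1 the values were -0.84 ± 0.11 and -0.84 ± 0.11. Of the 13 genes called over both guides, 10 passed with each guide and in the same direction. POLD2, POLE3 and FEN1 passed with sg2 and not with sg1 (limma, adjusted p = 0.0154, 0.0147 and 0.0211 with sg1). Of the 30 genes that did not pass over both guides, 5 passed with sg1, namely ORC3 (0.50 ± 0.10, adjusted p = 0.00199), POLA1 (0.73 ± 0.20, adjusted p = 0.00935), POLE (-0.41 ± 0.10, adjusted p = 0.00377), PCNA (0.54 ± 0.14, adjusted p = 0.00695) and RFC4 (0.59 ± 0.11, adjusted p = 0.00120). With sg2 the log2 fold changes of these 5 were -0.071 ± 0.10, 0.44 ± 0.20, -0.19 ± 0.10, 0.17 ± 0.14 and 0.054 ± 0.11. Another 4 of the 30 passed with sg2, namely ORC4 (-0.79 ± 0.14, adjusted p = 0.000683), GMNN (-0.42 ± 0.10, adjusted p = 0.00367), POLE2 (-0.77 ± 0.13, adjusted p = 0.000369) and RFC3 (-0.75 ± 0.13, adjusted p = 0.000546). With sg1 these 4 were at -0.30 ± 0.14, 0.016 ± 0.10, -0.27 ± 0.13 and -0.077 ± 0.13.

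Compared directly, sg2 minus sg1, 0 of the 43 genes passed with limma, against 1.92% of all tested genes (1.39% higher, 0.538% lower). An unadjusted p under 0.05 was found for 12 of the 43, and for 3758 of the 12631 tested genes. edgeR called 0, against 1.56% of all genes, and DESeq2 called 4 (GMNN, ORC3, RFC3 and RFC4, all lower with sg2), against 8.14%. With limma 11.8% of all tested genes had an adjusted p under 0.05. For 5 of the 43 genes limma's adjusted p was between 0.01 and 0.05. These were RFC3 (-0.67 ± 0.14, adjusted p = 0.0202), ORC3 (-0.57 ± 0.11, 0.0164), RFC4 (-0.53 ± 0.12, 0.0260), POLE2 (-0.50 ± 0.14, 0.0465) and GMNN (-0.43 ± 0.11, 0.0331). ORC3 was at 49.7, 43.6 and 50.2 CPM in NTC, 64.98 and 71.1 CPM with sg1 and 44.99 and 45.8 CPM with sg2, so that the sg1 samples lay above the NTC samples and the sg2 samples within their range. Of the 43 genes 38 (88.4%) had a lower mean with sg2, against 46.5% of all tested genes, and the median difference was -0.18 beside 0.027. The lists of neighbouring genes described at the end did the same, with 93 of 109 lower and a median of -0.22, and all 20 genes of G2 and mitosis were lower, with a median of -0.57. These differences moved with single samples. Sg1 replicate 2 was the highest WTAP sample for 36 of the 43 genes and sg2 replicate 1 the lowest for 28. These counts were not made over all tested genes. Without sg1 replicate 2, 24 of 43 were lower with sg2 and the median difference was -0.077, and without sg2 replicate 1, 31 of 43 and -0.11. For the lists these were 77 of 109 and -0.14, and 83 of 109 and -0.17, while the G2 and mitosis genes stayed at 20 of 20. The difference in WTAP mRNA between the guides was -0.41 ± 0.14 (adjusted p = 0.0900), and its part in the differences above was not tested.

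**Figure D4:**
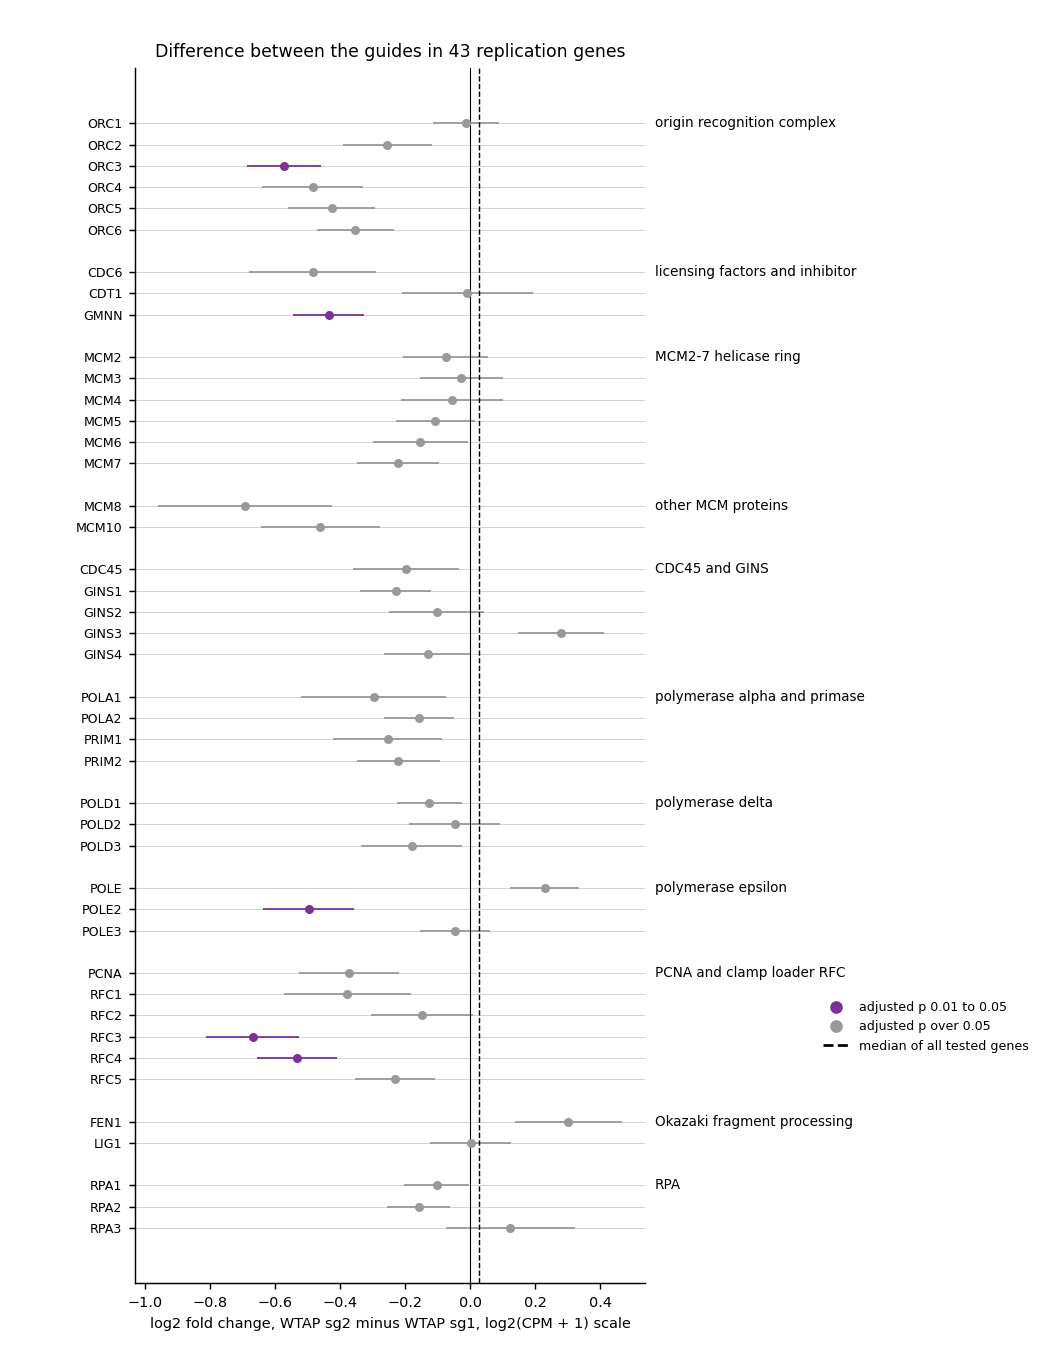
Log2 difference between the guides, sg2 minus sg1, for each of the 43 genes, with bars for the SE. Purple marks the 5 genes with limma's adjusted p between 0.01 and 0.05, where 11.8% of all tested genes were under 0.05. The dashed line is the median of all tested genes. The points lie to the left of 0 for 38 genes, and GINS3, POLE, FEN1, LIG1 and RPA3 lie to the right of it, LIG1 by 0.0021.

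Genes that act beside the fork machinery were taken from 10 lists of 110 genes, of which 109 were tested. In WTAP KO 46 of the 109 passed (42.2%, beside 52.4% of all tested genes), 21 higher and 25 lower. Of all tested genes 32.5% were higher and 19.8% lower, and the count of each list below stands beside these shares. By the median-of-ratios rescaling and by edgeR the split was 12 higher and 29 lower, where 53.1% and 53.4% of all tested genes passed. Without NTC replicate 3 the count was 27, and 39.7% of all tested genes passed. Of 13 origin firing and fork factors 2 rose, 1 fell and 10 did not pass. DONSON, which helps to assemble the active helicase, was at 89.6, 78.6 and 86.2 CPM in NTC, 106 and 177 CPM with sg1 and 119 and 142 CPM with sg2 (0.65 ± 0.16, adjusted p = 0.00515). WDHD1, which ties polymerase alpha to the helicase, rose by 0.72 ± 0.17 (adjusted p = 0.00373), and TIMELESS, of the fork protection complex, had a log2 fold change of -0.57 ± 0.12 (adjusted p = 0.00273) and fell. Of the 4 subunits left out of the 43, POLD4 of polymerase delta rose (0.84 ± 0.23, adjusted p = 0.00942), POLE4 of polymerase epsilon fell (-0.48 ± 0.12, adjusted p = 0.00609) and 2 did not pass.

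Of 11 genes of deoxynucleotide supply 4 rose, 2 fell and 5 did not pass. SAMHD1, which breaks deoxynucleotides down, was at 6.93, 5.41 and 6.05 CPM in NTC, 13.3 and 17.8 CPM with sg1 and 13.04 and 12.97 CPM with sg2, and it rose by 1.09 ± 0.15 (adjusted p = 0.000132). NME1, a nucleoside diphosphate kinase, was at 143, 157 and 152 CPM in NTC, 72.6 and 69.3 CPM with sg1 and 67.2 and 65.6 CPM with sg2, and it fell (-1.12 ± 0.086, adjusted p = 3.19e-06). DTYMK, the thymidylate kinase, fell too (-0.90 ± 0.14, adjusted p = 0.0004), and all its WTAP samples lay below NTC. Of 9 alternative clamp loaders and Okazaki nucleases, RNASEH2B rose (0.40 ± 0.11, adjusted p = 0.00844) and 8 did not pass. Of 8 genes of chromatin assembly behind the fork 3 rose, 1 fell and 4 did not pass. NASP, a histone chaperone, was at 569, 493 and 536 CPM in NTC, 318 and 354 CPM with sg1 and 269 and 274 CPM with sg2, and it fell (-0.81 ± 0.12, adjusted p = 0.000183), while UHRF1 (0.56 ± 0.13, adjusted p = 0.00374), which brings DNMT1 to hemimethylated DNA, and the histone binder RBBP4 (0.52 ± 0.11, adjusted p = 0.00201) rose. Of 8 genes of the replication checkpoint 2 rose, 3 fell and 3 did not pass. The kinase ATR (-0.69 ± 0.14, adjusted p = 0.00190) and its partner ATRIP (-0.74 ± 0.14, adjusted p = 0.00114) fell, and WEE1 (0.70 ± 0.13, adjusted p = 0.00114), which restrains CDK1, rose.

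Of 13 genes of the E2F and RB family 3 rose and 10 did not pass. The share that passed was 23.1%, all higher, beside 32.5% higher among all tested genes. E2F1, an activator of replication genes, was at 104, 123 and 110.4 CPM in NTC, 194 and 242 CPM with sg1 and 198 and 217 CPM with sg2, and it rose by 0.91 ± 0.11 (adjusted p = 5.13e-05). E2F2 rose by 1.07 ± 0.18 (adjusted p = 0.000464) and RBL2, a repressor of the RB family, by 0.85 ± 0.094 (adjusted p = 3.43e-05). For all 3 the groups did not overlap. Of 14 tested G1 and S cyclins, kinases and inhibitors 5 rose, 1 fell and 8 did not pass (42.9% called, beside 52.4% of all tested genes). CCND1, a G1 cyclin, was at 13.9, 10.7 and 12.9 CPM in NTC, 111 and 74.7 CPM with sg1 and 104 and 92.8 CPM with sg2, and it rose (2.83 ± 0.15, adjusted p = 2.62e-07). CCND2 was at 119, 119.9 and 116 CPM in NTC, 436 and 418 CPM with sg1 and 420.4 and 421 CPM with sg2 (1.83 ± 0.078, adjusted p = 5.73e-08), and its WTAP samples differed by little. CDKN1C, a kinase inhibitor, had 0 reads in all 3 NTC samples and was at 3.01 and 5.62 CPM with sg1 and 4.79 and 5.77 CPM with sg2. CDKN2A, the gene of that list left untested, was under a mean of 1 CPM.

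Of 9 genes of the ubiquitin ligases that turn over licensing factors 4 fell and 5 did not pass. CUL4A, the scaffold of the ligase that marks CDT1 in S phase, was at 206, 174 and 197 CPM in NTC, 134 and 119.9 CPM with sg1 and 124 and 131 CPM with sg2, and it fell (-0.59 ± 0.093, adjusted p = 0.00034). CUL1 (-0.67 ± 0.11, adjusted p = 0.000364) and SKP1 (-0.57 ± 0.091, adjusted p = 0.000381), of the SKP2 ligase, fell too. Of 20 genes of G2 and mitosis 12 fell and 8 did not pass, a share of 60.0% lower beside 19.8% of all tested genes. CCNB1, the mitotic cyclin, was at 157, 142 and 156 CPM in NTC, 56.1 and 39.8 CPM with sg1 and 31.4 and 30.7 CPM with sg2, and it fell (-1.95 ± 0.19, adjusted p = 1.4e-05). PLK1 was at 185, 193 and 178 CPM in NTC, 88.9 and 79.1 CPM with sg1 and 56.7 and 51.8 CPM with sg2 (-1.45 ± 0.18, adjusted p = 6.29e-05), and BUB1, of the spindle checkpoint, fell as well (-1.17 ± 0.17, adjusted p = 0.000208). The median log2 fold change of these 20 genes was -0.64, beside 0.085 for the 43 replication genes and 0.15 for all tested genes. Of the 27 genes named from the lists, 18 kept their calls without each sample in turn. POLD4, POLE4, DONSON, WDHD1, TIMELESS, RNASEH2B, RBBP4, UHRF1 and ATR did not, with adjusted p of up to 0.0487. All 9 lost their calls without NTC replicate 3, where the adjusted p were 0.0106 to 0.0397.

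**Figure D5:**
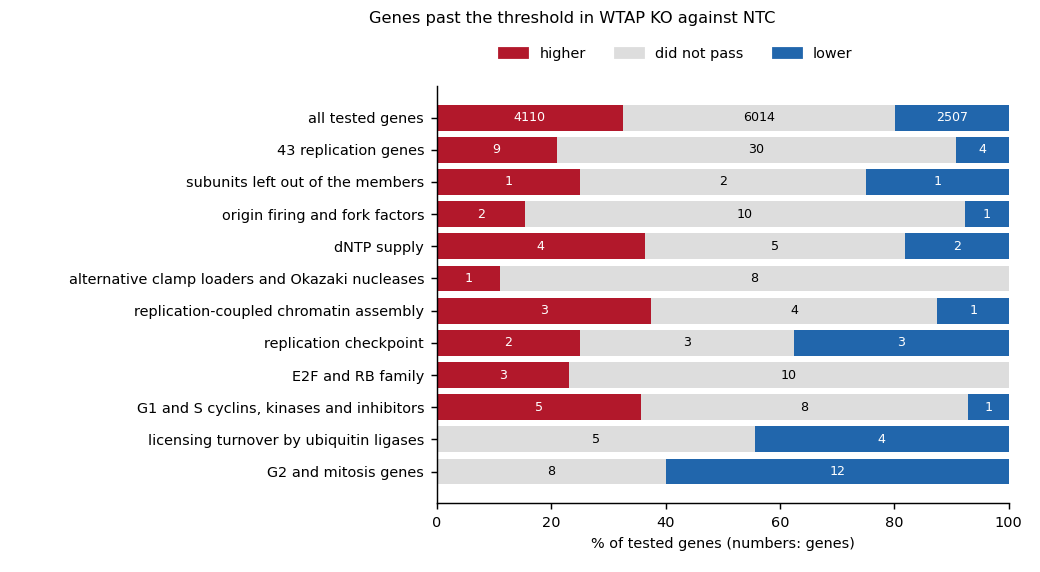
Share of tested genes that rose (red), did not pass (grey) or fell (blue) in WTAP KO against NTC, in percent, with the number of genes in each bar, for all tested genes, the 43 replication genes and the 10 lists. The list of G2 and mitosis genes holds 12 lower and no higher gene, and the replication genes hold 9 higher and 4 lower.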

How the data were processed

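RNA-seq of 7 HEL cell samples was used, with 3 NTC and 4 WTAP KO samples (2 guides with 2 samples each). Per the study's methods, libraries were made with the KAPA stranded kit, sequenced on an Illumina HiSeq instrument, aligned with TopHat2 to UCSC hg19 and counted with HTSeq against UCSC genes. Versions and HTSeq's strand setting are not given in the sources used here. The labels name edgeR as well, with no role. Labels and methods name different RNA extractions. The authors deposited CPM, and each sample summed to 1000000. Every value was a whole multiple of 1 read (100% of values, tolerance 0.01 read), so reads were recovered. The control samples list 24819 symbols and the WTAP samples 551 more, and shared symbols were used.

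Genes with a mean of at least 1 CPM were tested with limma 3.58.1 (R 4.3.3, mean-variance trend) on log2(CPM + 1), and Benjamini-Hochberg adjusted p under 0.01 was called. A fold change on this scale understates the change of low genes. WTAP was compared with NTC in a 2-group design, and the guides in a design of 3 groups (NTC, sg1, sg2). Alternatives were pseudocounts of 0.25 and 4, no filter and a mean of at least 5 CPM, median-of-ratios, shared-gene and quantile scaling, no trend, edgeR 4.0.16 and DESeq2 1.42.0 on recovered reads (edgeR called 6751 and DESeq2 7504 of 12631 genes for WTAP KO), other thresholds, each sample left out, the replicate number as a block, and a loess correction (span 0.5) for GC content and transcript length, known for 97.7% of tested genes. Code was tested on simulated data. Python 3.11.15, numpy 2.4.6, pandas 2.3.3, scipy 1.17.1 and matplotlib 3.10.9 were used. Replicates of a group differed by more than sampling noise (chi-square per degree of freedom 11.8 to 51.8).

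The 43 genes and all lists were chosen with earlier results of these data known. Every one of the 43 was named. From each list up to 3 genes were named, those with the largest absolute log2 fold change among called genes whose groups did not overlap, and other genes only where a result turned on them. Gene positions and transcript lengths came from GENCODE v44 on GRCh37, and promoter windows from RefSeq on GRCh38.p14.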

Additional observations from a re-analysis of the deposited data

Results flagged for a closer look

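PLK1, the mitotic kinase from the list of G2 and mitosis genes, differed between the guides. Its log2 difference, sg2 minus sg1, was -0.62 ± 0.11 (SE), with limma's adjusted p = 0.00957 over all tested genes, and the sg1 samples held 88.9 and 79.1 CPM of PLK1 and the sg2 samples 56.7 and 51.8 CPM. Over all the lists, which were chosen with earlier results known, 5 of 109 genes (4.59%) passed this test, all lower with sg2. Of all tested genes 1.92% passed, 1.39% higher and 0.538% lower. The other 4, named after their values were seen, were the mitotic genes CENPF (-0.77, adjusted p = 0.00634) and KIF11 (-1.34, 0.00744) and the clamp loader genes DSCC1 (-0.84, 0.00616) and ATAD5 (-1.11, 0.00273). All 20 genes of G2 and mitosis were lower with sg2, 20 with an unadjusted p under 0.05 and 14 with an adjusted p under 0.05. Of the 12631 tested genes, 3758 had an unadjusted p under 0.05 and 11.8% an adjusted p under 0.05. The PLK1 call was lost without each NTC sample in turn, with no filter and with no mean-variance trend. In those fits no G2 and mitosis gene passed, and 0.248% to 1.34% of all tested genes did. The count of 5 was 1 without each NTC sample in turn, 4 without either sg1 replicate, 0 without sg2 replicate 1 and 5 without sg2 replicate 2.

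Taken gene by gene for the 43 genes and WTAP, no highest or lowest of the 4 WTAP values had a gap to its neighbour past Dixon's 95% limit in the 44 sets examined, where chance would give about 2.2. Across genes, sg1 replicate 2 was the highest WTAP sample for 36 of the 43 and had the highest sum of the 43, at 8316 CPM against 6302 to 7089 CPM in the other WTAP samples. The count of 36 has no counterpart here over all tested genes.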

How the results depend on the processing

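The count of 13 called replication genes was 8 (7 higher, 1 lower) with the replicate number as a block (35.0% of all tested genes), 20 with the GC and length correction (58.1%), 20 (11 higher, 9 lower) at an adjusted p under 0.05 (65.4%), 3 where a log2 change of at least 1 in size was also asked for (23.7%), and 9 to 17 with 1 sample left out (39.7% to 53.5%). The count of 46 list genes was 25 with the block (35.0%) and 10 with a log2 fold change of at least 1 (23.7%). With 1 sample left out it was 27 (without NTC replicate 3, 39.7%) to 52 (without sg2 replicate 1, 53.1%). The count of 15 with sg1 was 23 at an adjusted p under 0.05 (64.6%), 4 with a log2 fold change of at least 1 (21.7%), and 11 to 18 with 1 sample left out (40.02% to 50.69%). The count of 17 with sg2 was 26 with DESeq2 (61.1%), 3 with a log2 fold change of at least 1 (27.5%), and 11 (without sg2 replicate 2) to 18 with 1 sample left out (46.5% to 63.0%). The count of 0 between the guides was 4 with DESeq2 (8.14%), 5 at an adjusted p under 0.05 (11.8%) and 0 with any sample left out. With the block 11 genes passed with sg1 (39.9%), 13 with sg2 (47.0%) and 0 between the guides (0.396%). Where an arm was left with 1 sample, that sample was assumed to vary like the other groups. Apart from thresholds, fewer samples or residual degrees of freedom, the cause was not tested.

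The labels number replicates alike in the groups, but NTC replicate 3 has no partner, and the deviations of same-numbered samples correlated at -0.0188 and -0.0487 for NTC with sg1, at -0.266 and -0.324 for NTC with sg2 and at 0.325 for sg1 with sg2. The NTC samples were therefore taken to share only a number with the WTAP samples. The sg1 and sg2 samples of the same number deviated alike, and what they shared was not tested. The pairing was not used in the main fits. With the block the calls of GINS4, POLD1, POLD2, POLE3 and FEN1 did not hold (adjusted p = 0.0186, 0.0151, 0.0291, 0.0501 and 0.0292).

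Over single genes and settings, 1316 values kept direction and side of the threshold, 98 no longer passed, 42 newly passed and 34 changed sign. None of the genes that changed sign was called. ORC1 was at -0.14 with median-of-ratios scaling, -0.012 with quantile scaling, -0.0078 with the GC and length correction plus block, -0.16 with edgeR and -0.14 with DESeq2. MCM5 was at -0.081, -0.10 and -0.088 and MCM6 at -0.058, -0.066 and -0.051 with median-of-ratios, edgeR and DESeq2. With the GC and length correction, and then with the block added, ORC6 was at 0.060 and 0.067, GMNN at 0.039 and 0.023, CDC45 at 0.061 and 0.048, PRIM1 at 0.26 and 0.25, RFC5 at 0.0075 and 0.0032, and RPA2 at 0.095 and 0.11, and ORC5 was at 0.037 with the block added only. CDC45 was at 0.00097 with CPM over shared genes. With 1 sample left out MCM5 ranged from -0.0030 to 0.17, MCM10 from -0.23 to 0.057, CDC45 from -0.13 to 0.057 and PRIM1 from -0.15 to 0.068. All 43 genes lay above the level of 3 reads in every sample, and depth, which differed between the groups, was not matched.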
